A study of Mus musculus with 37 samples.

Results

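1500015O10Rik, also called Ecrg4, and Ucma are 2 of the 21975 genes measured in cortical astrocytes of mice after a controlled cortical impact (CCI), a surgical model of traumatic brain injury, and each was found as the single row of the deposited tables whose Ensembl identifier carries that symbol. They were selected on their ipsilateral TPM values, as secreted proteins whose transcripts were higher in injured than in sham mice on the side of the impact. Their values in that contrast are therefore a description of how they were chosen and were not tested. The other comparisons, which the choice did not use, were tested.

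The study asked how astrocytes differ between shams, injured mice that stayed free of seizures (PTE-) and injured mice that developed post-traumatic epilepsy (PTE+). The injured mice had a severe impact through a craniectomy over the right parietal cortex, the shams had the craniectomy without the impact, and all mice later received recording electrodes. The astrocytes were collected 4 months after surgery with magnetic beads that bind ACSA-2, an antigen on the astrocyte surface. The ipsilateral libraries came from 5 sham, 10 PTE- and 4 PTE+ mice and the contralateral libraries from 5 sham, 9 PTE- and 4 PTE+ mice, which gave 37 libraries. Both hemispheres were measured in 17 mice. The methods give CD1 males, whereas the labels give the background of every mouse as WT CD31. The labels name no transgene or drug, and shams shared the craniectomy and the electrodes with the injured mice, so no group was free of surgery. Each library was 1 hemisphere of 1 mouse.

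Expression was given in the unit TPM, the share of a gene among all transcripts after correction for its length, which carries no read depth, so no counting interval can be attached to a value. Between 15599 and 18534 genes were above 0 in 36 of the 37 libraries, and 10727 in the ipsilateral PTE- library of mouse 9_14. Of 7981 genes above 5 TPM in each of the 36 other libraries, 776 were listed at 0 in mouse 9_14, and no other library had such a gene at 0. The main values of the 2 genes and the counts of called list members that rest on this library are given with and without it. All 10 astrocyte markers, among them Aldoc and Slc1a3, were above 0 in all 37 libraries. In these bulk preparations, more cells of a type and more RNA per cell cannot be told apart. The mouse names begin with 8 or 9, which may mark 2 batches of animals, although the labels do not say so. Most comparisons of the 2 genes are also given within each prefix.

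1500015O10Rik encodes augurin, a small protein with a signal peptide that is made as a precursor and cut into peptides by proprotein convertases. In the brain it is best known from the choroid plexus epithelium and from the cells lining the ventricles, and it has been tied to cell cycle exit and to innate immune receptors on leukocytes. Ucma encodes the unique cartilage matrix-associated protein, also called Gla-rich protein, which is secreted by chondrocytes. Its glutamate residues are carboxylated by the vitamin K-dependent gamma-carboxylase, which lets the protein bind calcium, and it has been described as an inhibitor of mineralization.

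1500015O10Rik (ENSMUSG00000026051) lies on chromosome 1 at 43730602 to 43742578 on the plus strand of GRCm38, the assembly called mm10 in the labels, and has 1 annotated transcript of 4 exons and 902 bases. The antisense gene Gm29155 overlaps the last 618 bases of the gene span, but shares no base with any of the 4 exons. Ucma (ENSMUSG00000026668) lies on chromosome 2 at 4976122 to 4985748 on the plus strand and has 5 annotated transcripts, 4 of them coding, with 3 to 5 exons and 430 to 847 bases. The tables give 1 value per gene, so the transcripts of Ucma could not be separated. The sequences around the annotated RefSeq starts (GRCm38.p6, plus strand, 250 bases before the start and 50 after it) are shown because both genes were higher on the injured side and because their starts can be searched for the motifs of injury-responsive factors.

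1500015O10Rik, chr1:43730352-43730651: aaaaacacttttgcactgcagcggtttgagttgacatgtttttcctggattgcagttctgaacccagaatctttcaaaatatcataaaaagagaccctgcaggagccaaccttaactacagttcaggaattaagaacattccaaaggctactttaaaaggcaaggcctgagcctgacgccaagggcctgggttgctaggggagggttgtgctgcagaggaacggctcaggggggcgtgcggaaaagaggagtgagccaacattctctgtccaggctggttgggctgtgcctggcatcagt
Ucma, chr2:4975872-4976171: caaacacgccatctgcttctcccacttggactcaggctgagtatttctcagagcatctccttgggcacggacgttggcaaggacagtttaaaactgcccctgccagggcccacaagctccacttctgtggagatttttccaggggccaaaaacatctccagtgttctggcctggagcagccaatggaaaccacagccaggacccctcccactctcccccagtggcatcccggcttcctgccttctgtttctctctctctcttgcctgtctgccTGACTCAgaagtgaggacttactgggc

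The capitals mark the only match among 5 motifs searched on both strands. It is an AP-1 motif (TGANTCA), which begins at base 24, counted from 1 at the Ucma start, at chromosome 2, 4976145 to 4976151. AP-1 is the dimer of Fos and Jun proteins, and 7.81% of 32851 RefSeq promoters of the same length held its motif. Neither window held the STAT motif (TTCNNNGAA, in 8.30% of promoters), the NF-kB motif (1.63%), the C/EBP motif (TTGCNNAA, 10.8%) or the SOX motif (ACAAAG, 18.7%). The windows held 5 and 4 CpG dinucleotides for 1500015O10Rik and Ucma, against a median of 7 over all promoters. These matches are letters in a window and were not tested as binding sites.

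On the injured side, 1500015O10Rik was higher in nearly every injured mouse than in any sham. The ipsilateral sham libraries read 16.63 TPM in mouse 8_15, 10.31 in 8_16, 9.03 in 9_9, 7.73 in 9_10 and 2.78 in 9_11. The 10 ipsilateral PTE- libraries ran from 8.29 TPM in mouse 9_12 through a median of 28.24 to 69.22 in mouse 9_20. The 4 ipsilateral PTE+ libraries read 20.32 TPM in mouse 8_10, 20.42 in 9_17, 36.55 in 9_18 and 31.6 in 9_19. All 4 PTE+ mice and 9 of 10 PTE- mice stood above the highest sham, and the exception was mouse 9_12. The means were 9.30 ± 4.995 TPM (SD, n = 5) in shams, 34.6 ± 19.2 (n = 10) in PTE- mice and 27.2 ± 8.17 (n = 4) in PTE+ mice.

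The injured mean of 32.5 ± 16.8 TPM (SD, n = 14) was 3.50 times the sham mean, and the difference of mean log2(TPM + 1) was 1.70. That difference ranked 4th from the top among 10434 genes that averaged more than 5 TPM in sham or injured libraries. It was 1.72 without mouse 9_14, 1.28 among mice of prefix 8 (5 injured, 2 sham) and 2.00 among mice of prefix 9 (9 injured, 3 sham). No injured mouse of prefix 8 overlapped the shams of that prefix, and 8 of 9 injured mice of prefix 9 stood above their shams. Of all genes compared between ipsilateral injured and sham libraries, 1.62% were called when p under 0.05 before adjustment and a 1.2-fold change in either direction were asked for, as the study did. The study took its p-values from DESeq2 on raw counts, whereas those here came from limma on log2(TPM + 1). None of the 10434 passed the Benjamini-Hochberg adjustment of the limma fit, and 195 had an unadjusted p under 0.05.

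Ucma was a low transcript in shams and stood above 5 TPM in 11 of 14 injured mice on the side of the impact. The ipsilateral sham libraries read 2.8 TPM in mouse 8_15, 4.26 in 8_16, 1.71 in 9_9, 3.13 in 9_10 and 0.55 in 9_11. The 10 ipsilateral PTE- libraries ran from 0 in mouse 9_14 through a median of 7.165 TPM to 36.61 in mouse 9_20. The 4 ipsilateral PTE+ libraries read 9.3 TPM in mouse 8_10, 11.78 in 9_17, 15.93 in 9_18 and 24.22 in 9_19. All 4 PTE+ libraries lay above the shams, whereas the PTE- libraries of mice 9_12 at 4.04 TPM, 9_13 at 3.58 and 9_14 fell within or below the sham range. The value of mouse 9_14 is listed at 0 in a library that also lists widely expressed genes at 0. The lowest PTE- value without it was 3.58 TPM.

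The ipsilateral means of Ucma were 2.49 ± 1.42 TPM (SD, n = 5) in shams, 10.1 ± 10.4 (n = 10) in PTE- mice, or 11.3 ± 10.4 (n = 9) without mouse 9_14, and 15.3 ± 6.54 (n = 4) in PTE+ mice. The injured mean of 11.6 ± 9.52 TPM (n = 14) was 4.67 times the sham mean, and the log2 difference was 1.55, or 1.80 without mouse 9_14. It ranked 6th among the same 10434 genes. The sham mean lay under the filter of 5 TPM, so Ucma was among these genes through its injured mean alone. Its rank is thus part of how it was chosen. The log2 difference was 1.02 among mice of prefix 8 and 1.90 among mice of prefix 9, or 2.31 in prefix 9 without mouse 9_14.

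**Figure D1:**
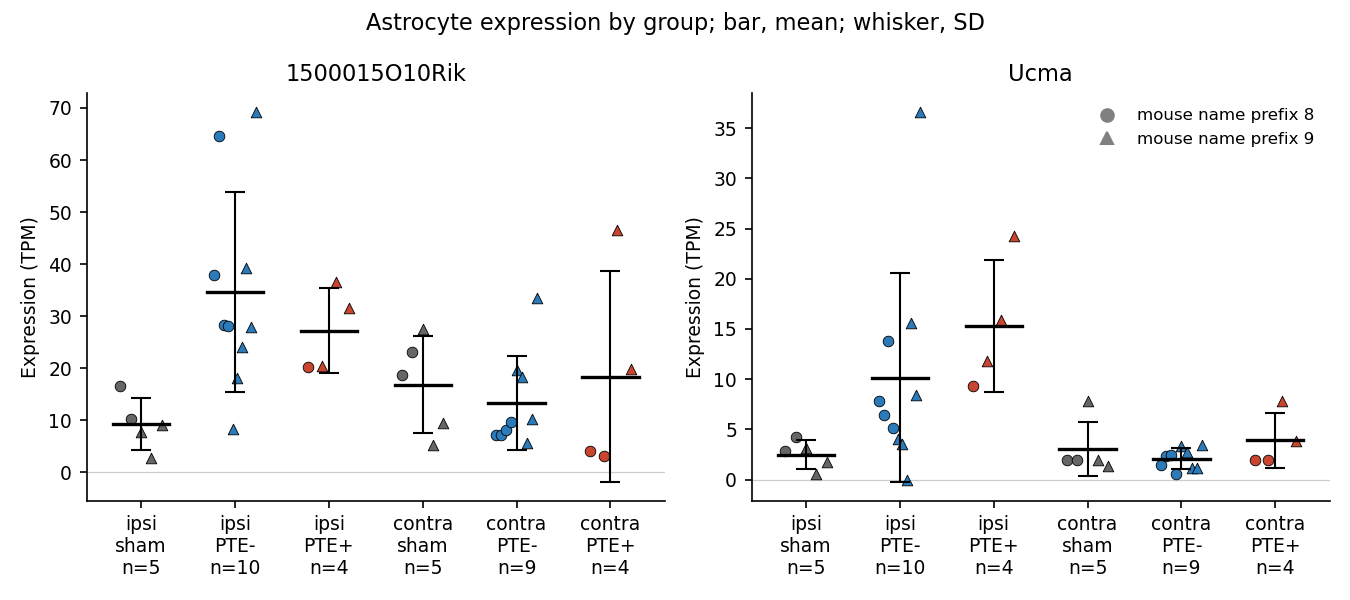
Expression of 1500015O10Rik (left) and Ucma (right) in TPM in each library by hemisphere and group, with circles and triangles for mouse names that begin with 8 and 9, a bar for the mean and a whisker for the SD. The ipsilateral PTE- and PTE+ libraries reach 69.22 TPM for 1500015O10Rik and 36.61 TPM for Ucma, whereas no ipsilateral sham passes 16.63 and 4.26 TPM.

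On the side away from the impact neither gene separated the groups. For 1500015O10Rik, the contralateral sham libraries read 18.75 TPM in mouse 8_15, 23.07 in 8_16, 9.5 in 9_9, 27.59 in 9_10 and 5.2 in 9_11. The 9 contralateral PTE- libraries ran from 5.64 TPM in mouse 9_15 through a median of 9.73 to 33.58 in mouse 9_20. The 4 contralateral PTE+ libraries read 4.05 TPM in mouse 8_10, 3.22 in 8_17, 46.61 in 9_17 and 19.79 in 9_18, so this group held both the lowest and the highest contralateral value. The means were 16.8 ± 9.32 TPM (SD, n = 5), 13.3 ± 9.08 (n = 9) and 18.4 ± 20.3 (n = 4).

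For Ucma, the contralateral sham libraries read 1.98 TPM in mouse 8_15, 1.9 in 8_16, 1.39 in 9_9, 7.85 in 9_10 and 1.99 in 9_11. The 9 contralateral PTE- libraries ran from 0.52 TPM in mouse 8_9 through a median of 2.34 to 3.46 in mouse 9_20. The 4 contralateral PTE+ libraries read 1.97 TPM in mouse 8_10, 1.98 in 8_17, 7.83 in 9_17 and 3.88 in 9_18. The means were 3.02 ± 2.71 TPM (SD, n = 5), 2.06 ± 1.04 (n = 9) and 3.92 ± 2.76 (n = 4), and all 3 ranges overlapped.

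Ordered by mean TPM, 1500015O10Rik was highest in ipsilateral PTE- libraries, followed by ipsilateral PTE+, contralateral PTE+, contralateral sham, contralateral PTE- and ipsilateral sham. Ucma was highest in ipsilateral PTE+ libraries, followed by ipsilateral PTE-, contralateral PTE+, contralateral sham, ipsilateral sham and contralateral PTE-. No neighbours in either order differed by more than the larger of their SDs, and the ranges of all neighbours overlapped.

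The first tested question was whether epilepsy after injury moved either gene on the side of the impact. The PTE+ minus PTE- difference of 1500015O10Rik was -0.18 on the log2 scale (SE 0.41, limma unadjusted p = 0.675, adjusted p = 0.981, two-sided exact permutation p = 0.699). Its 95% interval ran from -1.16 to 0.80, so these mice allow a change of either sign within those bounds. Without mouse 9_14 the difference was -0.21 (exact permutation p = 0.685). The difference was -0.85 within prefix 8, where a single PTE+ mouse met 4 PTE- mice, and 0.15 within prefix 9.

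Ucma was higher in PTE+ than in PTE- mice by 0.99 on the log2 scale, and all 4 PTE+ mice stood above the PTE- median, but the difference did not pass the test (SE 0.67, limma unadjusted p = 0.160, adjusted p = 0.977, exact permutation p = 0.207). The 95% interval ran from -0.60 to 2.57. Without mouse 9_14 the difference was 0.66 (exact permutation p = 0.239). It was 0.23 within prefix 8 and 1.30 within prefix 9 (exact permutation p = 0.274), and the prefix 9 value was 0.73 without mouse 9_14 (exact permutation p = 0.393). Of the 10473 genes tested between ipsilateral PTE+ and PTE- libraries, 0.573% were called, none of them after adjustment with limma, and 63 had an unadjusted p under 0.05. The median difference over all of these genes was 0.12, so the typical gene was also slightly higher in PTE+ libraries.

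The next question was whether injury moved either gene in the other hemisphere. The contralateral injured minus sham difference of 1500015O10Rik was -0.33 on the log2 scale (SE 0.48, limma unadjusted p = 0.497, adjusted p = 0.989, exact permutation p = 0.541), with a 95% interval from -1.47 to 0.81. The pooled value did not hold within the prefixes, where the signs were opposite. Among mice of prefix 8 the difference was -1.60, and all 6 injured mice, at 3.22 to 9.73 TPM, lay below both shams, at 18.75 and 23.07 TPM (exact permutation p = 0.0357, the smallest that 28 splits allow). Among mice of prefix 9 it was 0.66 in 7 injured against 3 sham mice (exact permutation p = 0.35). The difference between the prefixes was not tested. The p-values within prefixes were not adjusted for the number of splits. The share of all genes with such a separation in prefix 8 is not given, so the separation is not read as particular to this gene.

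Ucma lay below the filter of 5 TPM in every contralateral group and was compared by exact permutation alone. Its injured minus sham difference was -0.10 on the log2 scale (exact permutation p = 0.796, 95% interval -0.85 to 0.65), with -0.13 in prefix 8 and -0.02 in prefix 9. Against contralateral shams, PTE- mice differed by -0.32 for 1500015O10Rik (exact permutation p = 0.494) and by -0.29 for Ucma (exact permutation p = 0.433). PTE+ mice differed from the same shams by -0.36 (exact permutation p = 0.667) and by 0.32 (exact permutation p = 0.54). For 1500015O10Rik the prefixes had opposite signs in both. PTE- mice differed by -1.275 in prefix 8 and 0.38 in prefix 9, and PTE+ mice by -2.24 and 1.355. For Ucma the values were -0.20 and -0.32 in PTE- mice and 0.02 and 0.72 in PTE+ mice. Of 10556 genes, 4.05% were called between contralateral injured and sham libraries, none after adjustment with limma, and 472 had an unadjusted p under 0.05.

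Between contralateral PTE+ and PTE- libraries the log2 difference of 1500015O10Rik was -0.04 (SE 0.57, limma unadjusted p = 0.946, adjusted p = 0.999, exact permutation p = 0.950), with a 95% interval from -1.50 to 1.42. The ratio of mean TPM was 1.38, and mouse 9_17 held the highest value of all contralateral libraries. The difference was -0.96 within prefix 8 (2 PTE+ against 4 PTE-, exact permutation p = 0.0667, the smallest possible) and 0.98 within prefix 9 (2 against 5, exact permutation p = 0.286), so here too the prefixes had opposite signs. For Ucma the difference was 0.61 (exact permutation p = 0.125, 95% interval -0.18 to 1.40), with 0.22 in prefix 8 and 1.04 in prefix 9 (exact permutation p = 0.0952). Without PTE+ mouse 9_17 it was 0.28 (exact permutation p = 0.446), and with array weights it was 0.26. Of 10423 genes, 2.79% were called, none after adjustment with limma, and 303 had an unadjusted p under 0.05.

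**Figure D2:**
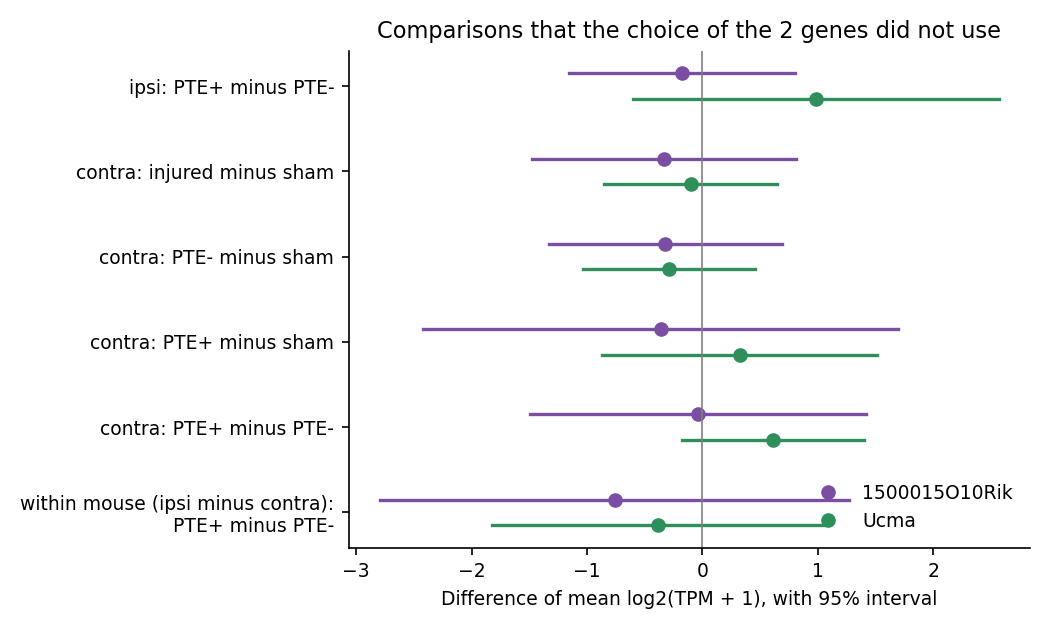
Differences of mean log2(TPM + 1) for 1500015O10Rik and Ucma in the 6 comparisons that the choice of the genes did not use, with points for the difference and lines for its 95% interval. Every interval includes 0, and that of 1500015O10Rik within mice runs from -2.80 to 1.28.

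Both hemispheres of the same mouse could be set against each other in 5 sham, 9 PTE- and 3 PTE+ mice. For 1500015O10Rik, all 5 shams were lower on the operated side, by -0.75 ± 0.68 on the log2 scale (SD). In 9 of 12 injured mice the gene was higher on the side of the impact, and the mean difference was 1.16 ± 1.35 (SD, n = 12). The PTE- mice averaged 1.35 ± 1.30 (n = 9) and the 3 PTE+ mice read 2.08 in mouse 8_10, -1.15 in 9_17 and 0.85 in 9_18. The 3 injured mice without a higher ipsilateral level were 9_12 at -1.16, 9_17 at -1.15 and 9_13 at -0.01, all of prefix 9. Injured mice of prefix 8 ran from 1.44 in mouse 8_9 to 2.99 in 8_13, and those of prefix 9 from -1.16 to 2.60 in mouse 9_15. The mean of 1.16 thus pools 2 prefixes with unlike ranges, and their difference was not tested.

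Ucma was higher on the side of the impact in all 12 injured mice, with differences from 0.22 to 3.08 and a mean of 1.66 ± 0.94 (SD, n = 12). The sham mice averaged -0.13 ± 0.85 (n = 5), and 3 of the 5 were higher on the operated side. The PTE- mice averaged 1.76 ± 1.02 (n = 9) and the PTE+ mice 1.37 ± 0.73 (n = 3). These values share the ipsilateral libraries that chose the genes and were not tested. By size, the injured mean ranked 5th for Ucma and 15th for 1500015O10Rik among 10683 genes. Ucma was among these genes only through its ipsilateral means, since its contralateral ones lay under the filter of 5 TPM. Of all 10683 genes, the 2 themselves included, 4.57% were called between the hemispheres of injured mice, and 22 passed the adjustment of the limma fit.

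Whether this hemisphere difference depended on epilepsy was tested over mice. PTE+ minus PTE- was -0.76 for 1500015O10Rik (SE 0.75, limma unadjusted p = 0.327, adjusted p = 0.995, exact permutation p = 0.427), with a 95% interval from -2.80 to 1.28. It was -0.38 for Ucma (SE 0.56, limma unadjusted p = 0.505, adjusted p = 0.995, exact permutation p = 0.55), with a 95% interval from -1.83 to 1.06. With 3 PTE+ mice these intervals admit large differences of either sign, and both values changed sign without mouse 9_17. The difference of 1500015O10Rik was 0.11 without mouse 9_17 and -1.50 without mouse 8_10 (limma unadjusted p = 0.0897), and that of Ucma was 0.04 without mouse 9_17 and -0.59 without mouse 9_18. Of all genes, 3.09% were called in this comparison, none of them after adjustment with limma, and 331 had an unadjusted p under 0.05. PTE+ minus PTE- was -0.02 for 1500015O10Rik and 0.01 for Ucma within prefix 8, where 1 PTE+ mouse met 4 PTE- mice. Within prefix 9 (2 against 5) it was -0.91 and -0.57.

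**Figure D3:**
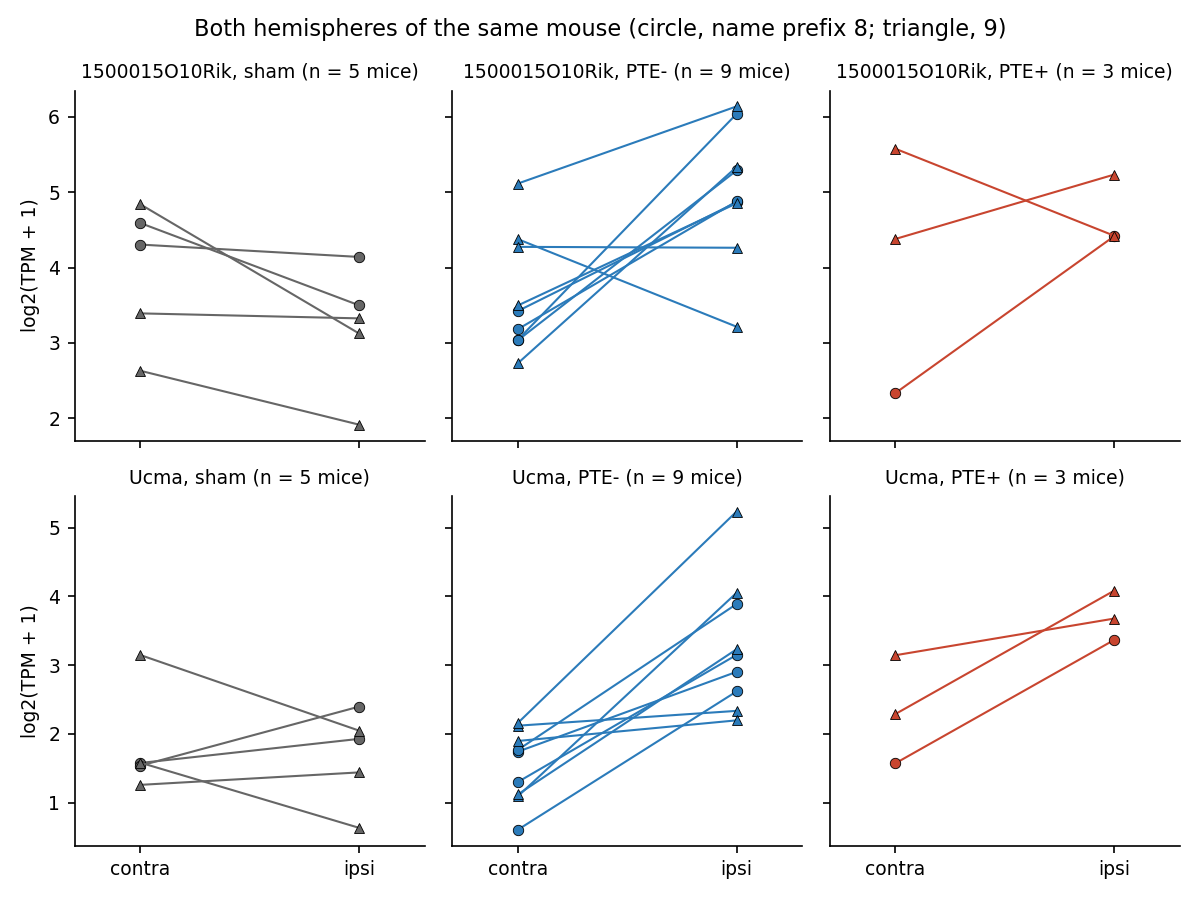
log2(TPM + 1) of 1500015O10Rik (top) and Ucma (bottom) in the contralateral and ipsilateral hemisphere of each mouse, joined by a line, for 5 sham, 9 PTE- and 3 PTE+ mice. Every injured line of Ucma rises towards the side of the impact, whereas 9 of 12 do for 1500015O10Rik and all 5 sham lines of that gene fall.

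Whether the genes varied together among injured mice was asked in each hemisphere, as 2 relations. In the 14 ipsilateral injured libraries Pearson's r of log2(TPM + 1) was 0.461 (permutation p = 0.1) and Spearman's rho 0.574 (permutation p = 0.0355), and adjustment over both hemispheres left these p-values as they were. Without mice 9_12 and 9_20, the farthest from the median of 1500015O10Rik, r was 0.251 (permutation p = 0.409). Leaving out the farthest libraries also narrows the range of the gene, so how far the relation rests on them cannot be told. Without mouse 9_14, r was 0.577 (permutation p = 0.0385). Within prefix 9, r was 0.595 (permutation p = 0.0964) and rho 0.783 (permutation p = 0.0172) over 9 libraries. Without mouse 9_14 the 8 libraries of prefix 9 gave an r of 0.867 (permutation p = 0.00465) and a rho of 0.857 (permutation p = 0.0106). Prefix 8 held too few libraries.

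In the 13 contralateral injured libraries r was 0.708 (permutation p = 0.00641, adjusted p = 0.0128) and rho 0.709 (permutation p = 0.00866, adjusted p = 0.0173). Without mice 9_17 and 9_20, the highest for 1500015O10Rik, r fell to 0.449 (permutation p = 0.167). The range was narrowed here too, so how far the relation rests on those libraries cannot be told. The r was 0.926 over the 7 libraries of prefix 9 (permutation p = 0.00833) and -0.448 over the 6 of prefix 8 (permutation p = 0.4), and thus the relation did not hold within both.

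The 5 genes whose pattern over all 37 libraries was most like that of each gene were not the same for the pair. Likeness was measured as Pearson's r of log2(TPM + 1) among 10873 other genes and is given as a description, since the libraries share mice, groups and the injury. For 1500015O10Rik the nearest genes were Cfap126 (r = 0.869), Enkur (0.860), Fam183b (0.857), Gm19935 (0.841) and Dnali1 (0.837). Cfap126, Enkur and Dnali1 encode proteins of motile cilia. For Ucma they were C3 (0.827), the central complement component, Pawr (0.824), a regulator of apoptosis, Dnajb13 (0.819), a protein of the sperm and cilium axoneme, Bace2 (0.770), an aspartyl protease related to beta-secretase, and C4b (0.749), a complement component of reactive astrocytes. 1500015O10Rik and Ucma had r = 0.693 with each other, which ranked 28th for Ucma and 42nd for 1500015O10Rik. Without mouse 9_14 it was 0.768, which ranked 6th for Ucma and 92nd for 1500015O10Rik. Vim, a reactive astrocyte gene, had r = 0.829 with 1500015O10Rik and 0.7 with Ucma. Leaving out mouse 9_14, a choice made after its zeros were seen, put Fam183b (0.880) first for 1500015O10Rik and Ccdc3 (0.857) first for Ucma, with C3 still among the nearest 5 of Ucma.

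C3 was at 2.41 ± 1.36 TPM (SD, n = 5) in ipsilateral shams and 8.85 ± 6.89 (n = 14) in ipsilateral injured mice, a log2 difference of 1.2 that was not called (limma unadjusted p = 0.0574). The study, with DESeq2 on raw counts, listed C3 and Ucma among the top 5 ipsilateral genes raised by CCI. C3 is listed at 0 in mouse 9_14, and without that library its difference was 1.42 and was called (limma unadjusted p = 0.00798). Cfap126 was at 9.40 ± 5.91 TPM (n = 5) and 18.6 ± 7.39 (n = 14), a log2 difference of 1.14 that was called (limma unadjusted p = 0.00815). Within injured mice C3 was higher on the side of the impact in 10 of 12, C4b in 12 of 12 and Cfap126 in 9 of 12.

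**Figure D4:**
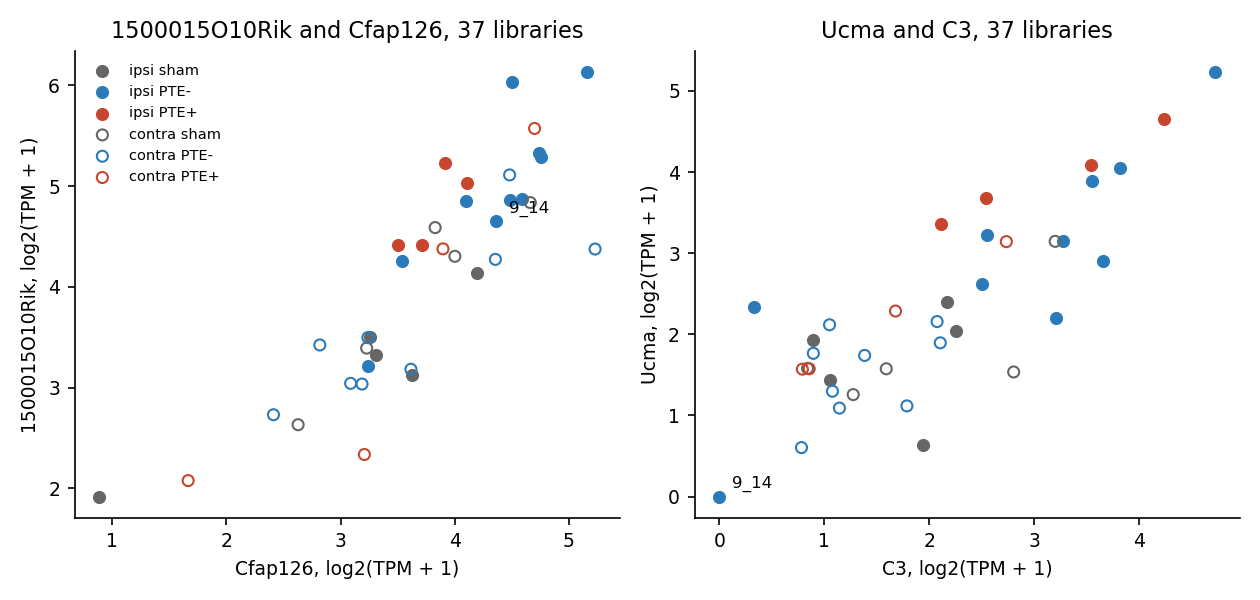
log2(TPM + 1) of 1500015O10Rik against Cfap126 (left, r = 0.869) and of Ucma against C3 (right, r = 0.827) in 37 libraries, with filled points for ipsilateral and open points for contralateral libraries and colours for the groups. The ipsilateral PTE- library of mouse 9_14 lies among the others on the left and at 0 for both genes on the right.

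Markers of ependymal cells, the ciliated lining of the ventricles, moved with 1500015O10Rik. Among the 8 ependymal markers, Pearson's r with 1500015O10Rik over 37 libraries ranged from 0.366 for Pltp to 0.869 for Cfap126 with a median of 0.665, against a median of -0.032 over all 10873 genes, and 5 of the 8 were among its 100 nearest genes. The median was 0.557 with Ucma, against 0.110 over all genes, and 1 of the 8 was among the 100 nearest of Ucma. On the side of the impact 3 of 8 ependymal markers were called higher in injured than in sham mice, Cfap126, Tmem212 (log2 difference 1.08) and Foxj1 (0.98), the transcription factor of motile cilia, and none lower. The list median was 0.74, against -0.01 over all genes, of which 1.62% were called in either direction. Without mouse 9_14, 5 of 8 were called higher, with Ccdc153 (1.02) and Dynlrb2 (0.99) added, and the list median was 1.005, beside 399 of 10424 genes called in either direction. None of the 8 was at 0 in any library.

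The summed level of these 8 markers ran from 526.6 to 1290.1 TPM in ipsilateral shams, from 758.4 to 1897.7 in ipsilateral PTE- libraries and from 760.1 to 1076.2 in ipsilateral PTE+ libraries. In contralateral libraries it ran from 594.5 to 1650 TPM in shams, from 677.8 to 2222.6 in PTE- and from 717.8 to 2053.7 in PTE+ mice. The ranges overlapped in both hemispheres.

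Within injured mice, the summed ependymal markers and 1500015O10Rik fell on the same side in 12 of 12. The share of all genes that did so was not computed. The sum is weighted towards the abundant markers. Foxj1, Tmem212, Ccdc153 and Cfap126 averaged 4.37, 57.1, 62.4 and 9.40 TPM in ipsilateral shams, where the sum averaged 913.8 TPM. Most of the sum thus came from the other listed markers, Rarres2, Pltp, Dynlrb2 and Mia. Taken singly, Foxj1, Tmem212, Ccdc153 and Cfap126 were higher ipsilaterally in 8, 8, 8 and 9 of the 12 injured mice. In the 9 mice with more 1500015O10Rik ipsilaterally the marker sum was also higher there, and in mice 9_12, 9_13 and 9_17 both were lower. In mouse 9_12 the sum was 882.9 TPM ipsilaterally and 2222.6 contralaterally, and in mouse 9_17 it was 760.1 and 2053.7 TPM. Among shams the side was shared in 3 of 5 mice, and Ucma shared it in 9 of the 12 injured mice. The part of ependymal cells in the 1500015O10Rik values was not tested.

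**Figure D5:**
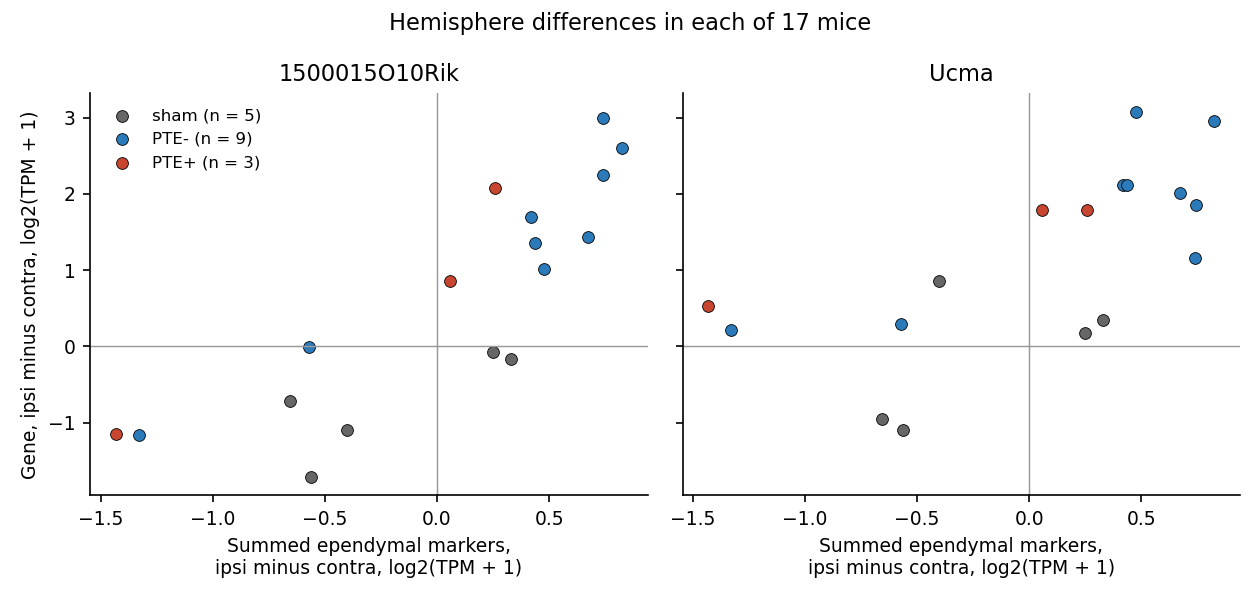
Ipsilateral minus contralateral log2(TPM + 1) of 1500015O10Rik (left) and Ucma (right) against that of the 8 summed ependymal markers in 17 mice, coloured by group. All 12 injured mice share the sign for 1500015O10Rik, whereas for Ucma the 3 injured mice with a lower marker sum ipsilaterally still have positive differences.

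On the side of the impact, none of the 5 choroid plexus markers tested was called between injured and sham mice, and the list median was 0.55. The summed level of the 8 listed markers ran from 50.13 to 145.3 TPM in ipsilateral shams and from 47.89 to 1015 in ipsilateral PTE- libraries. Ttr, the thyroid hormone carrier of that epithelium, was at 770.9 TPM in the ipsilateral PTE- library of mouse 8_13 and at 316.9 in that of 8_11, and at most 23.8 TPM in the 35 others. Mouse 8_13 had the second highest 1500015O10Rik level, at 64.55 TPM, and the largest hemisphere difference, at 2.99. The ipsilateral library of mouse 9_20, with the highest 1500015O10Rik level at 69.22 TPM, read 0 TPM for Ttr. Over 37 libraries the median r of the 5 measured choroid plexus markers with 1500015O10Rik was 0.248, against -0.032 over all genes. None of the 5 was among its 100 nearest genes. The part of choroid plexus tissue in these values was not tested.

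On the side of the impact, where 1.62% of all genes were called, 6 of 11 tested reactive astrocyte genes were called higher in injured mice. None was called lower, and the list median was 0.83, against -0.01 over all genes. The 6 were Gfap (log2 difference 1.18), the intermediate filament of astrocytes, C4b (0.97), Vim (0.95), Serpina3n (0.92), a protease inhibitor, Cd44 and Aspg. Without mouse 9_14, 7 of 12 were called higher, C3 among them, beside 399 of 10424 genes called in either direction. Of the 7, only Gfap (1.32) then passed the adjustment (limma adjusted p = 0.0212). In the contralateral hemisphere none of the 11 tested was called higher in injured mice and Lcn2 was called lower (-1.67), with a list median of -0.23. Over 37 libraries the median r of the 12 measured members was 0.429 with 1500015O10Rik and 0.477 with Ucma, and 2 and 4 of them were among the 100 nearest genes. Between the hemispheres of injured mice 10 of 12 were called higher on the side of the impact, 5 of them after adjustment with limma. Of all genes, 4.57% were called there, and 22 passed the adjustment.

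Oligodendrocyte markers were lower in the same contrast. In ipsilateral injured against sham libraries 4 of 9 were called lower, Mog (-1.75), Mag (-1.53), Opalin (-1.23) and Ermn (-0.998), with a list median of -0.998. Of all genes, 1.62% were called there in either direction. The summed level of the 10 markers ran from 524.4 to 4480.6 TPM in ipsilateral shams, from 774 to 2275 in PTE- and from 1192.5 to 2342.4 in PTE+ libraries, so the ranges overlapped, and only the library of mouse 9_14 had any of them at 0, 7 of 10. No marker of endothelial cells (0 of 6), microglia (0 of 9), meninges and fibroblasts (0 of 9) or oligodendrocyte precursors (0 of 6) was called in this contrast, nor of mural cells (0 of 7) or neurons (0 of 8). Of the 10 astrocyte markers only Aqp4, the water channel of astrocyte endfeet, was called (0.39). Without mouse 9_14 the same 4 oligodendrocyte markers were called lower, and of the precursor markers C1ql1 was called higher (0.95). Without that library 399 of 10424 genes were called in either direction.

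Markers of other cell types also differed between the hemispheres of injured mice, where 4.57% of all genes were called in either direction. On the side of the impact 4 of 7 endothelial markers were called lower, Pecam1 (-0.46), Flt1 (-0.50), Ly6c1 (-0.51) and Slco1a4 (-0.42), with a list median of -0.42. Of 8 oligodendrocyte markers 4 were called lower, Mbp (-0.72), Mog (-0.84), Mobp (-0.92) and Mal (-0.58), with a list median of -0.56. The mural markers Rgs5 (-0.41) and Acta2 (-0.66) were called lower, 2 of 8, and so was 1 of 9 meningeal and fibroblast markers, Aldh1a2 (-0.36). Of 7 markers of oligodendrocyte precursors, Matn4 (1.14) and C1ql1 (0.52) were called higher and Olig2 (-0.45) lower. Of 5 choroid plexus markers Aqp1 (1.33) was called higher. None of the microglia (0 of 9), neuron (0 of 8) or ependymal markers (0 of 8) was called. The part of these cells in the values of the 2 genes was not tested.

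The genes known to act on the augurin precursor and with it were measured beside it. Of the 5 tested proprotein convertases, the enzymes that cut such precursors, none was called in any of the 4 comparisons between groups, or between the hemispheres of injured mice, with all libraries. Pcsk6 was at 40.7 TPM in ipsilateral shams and 38.0 in injured mice, and Mbtps1, the site-1 protease, at 26.4 and 28.2 TPM. Of the innate immune receptors linked to augurin, 3 of 7 passed the filter on the injured side, Cd14, Ly96 and Scarf1, and none was called between groups with all libraries. Between the hemispheres of injured mice Cd14 was called higher (0.55) and Stab1 lower (-0.42) on the side of the impact. Of 7 tested genes of the cell cycle and senescence list none was called on the injured side, and Cdkn1a, an inhibitor of cell division, read 17.4 TPM in shams and 24.6 in injured mice. Without mouse 9_14, a choice made after its zeros were seen, 399 of 10424 genes were called in either direction. Among them 3 of the 7 were called higher, Cdkn1a (0.53), Cdkn2b (0.52) and Cdkn2c (0.33), all inhibitors of cell division. None of the 3 passed the adjustment of the limma fit.

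For Ucma, the 7 genes of the vitamin K cycle all passed the filter in these astrocytes, and none was called on the injured side. Ggcx, the gamma-carboxylase, was at 24.1 TPM in ipsilateral shams and 20.1 in injured mice, and Vkorc1, the epoxide reductase, at 151 and 167 TPM. In the contralateral injured against sham comparison Nqo1, a quinone reductase, was called lower (-0.34), and between the hemispheres of injured mice it was called higher on the side of the impact (0.37). Of the 15 other Gla protein genes, 4 passed the filter on the injured side and none was called. Mgp, the matrix Gla protein and an inhibitor of calcification, was at 120 TPM in ipsilateral shams and 112 in injured mice. It was called higher in contralateral PTE+ than PTE- mice (0.77), the only one of the 4 Gla genes tested there.

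Genes of cartilage and of bone morphogenetic protein (BMP) signalling, the settings in which Ucma is best known, held 1 call each on the injured side. Of all genes, 1.62% were called there. Of 6 cartilage genes tested the one called was Cnmd (0.70), which encodes the cartilage glycoprotein chondromodulin, while Acan and Col2a1 stayed below 1 TPM in each of the injured and sham means. Between the hemispheres of injured mice Cnmd (0.54) and Col9a2 (0.56) were called higher on the side of the impact. Of 14 BMP genes it was the antagonist Nog (0.87), and between hemispheres Bmp6 (0.31). The ligand Bmp7 was at 56.1 and 65.3 TPM and the target Id3 at 784 and 930 TPM in ipsilateral sham and injured libraries, and neither was called. Without mouse 9_14, Nog, Bmp6 (0.56) and Id3 (0.27) were called higher on the injured side, beside 399 of 10424 genes called in either direction. None of the 3 passed the adjustment of the limma fit.

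In the ipsilateral PTE+ against PTE- comparison no member of any of the 18 lists was called. Without mouse 9_14, 6 were called, beside 197 of 10440 genes. The ependymal markers Ccdc153 (-0.94), Tmem212 (-0.94) and Mia (-1.03) and the choroid plexus marker Folr1 (-0.97) were lower in PTE+ mice, and Mbtps1 (0.37) and the meningeal marker Aldh1a2 (0.57) were higher. None of them passed the adjustment of the limma fit. These counts without the library were chosen after its zeros were seen.

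The genes next to each locus were not called with it. Within 50000 bases of 1500015O10Rik, Uxs1, which encodes a sugar nucleotide enzyme, read 12.1 ± 2.35 TPM (SD, n = 5) in ipsilateral shams and 16.3 ± 4.89 (n = 14) in injured mice. Near Ucma, Phyh, a peroxisomal hydroxylase gene, read 294.2 ± 25.97 TPM (n = 5) and 289.5 ± 38.3 (n = 14), Optn read 19.9 ± 5.65 and 18.7 ± 8.03 TPM, and Mcm10 stayed below the filter.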

How the data were processed

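Paired-end RNA-seq libraries were made from bead-isolated cortical astrocytes with the SMART-Seq v4 kit. The authors trimmed reads with Trim Galore 0.6.4, aligned them to mm10 with Bowtie2 2.4.1 and deposited RSEM 1.2.28 TPM values per gene, 1 table per hemisphere; the submitters' notes also name DESeq2 1.36.0. The annotation release and strand setting are not given in the sources used here. TPM keeps no read depth, and the number of mice limits the precision. Of the gene identifiers, 21856 matched a symbol and 119 did not.

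Values were taken as log2(TPM + 1). Genes that averaged more than 5 TPM in 1 or more of the groups compared were fitted with limma 3.58.1 (R 4.3.3), with a trend of variance on mean and Benjamini-Hochberg adjustment over all genes tested. A call is an unadjusted p under 0.05 with a fold change of at least 1.2. The 2 genes were also compared by two-sided exact permutation (Python 3.11.15, scipy 1.17.1), correlations by 100000 permutations, and 95% intervals use the pooled SD. Named genes are the 2 genes, their 5 nearest genes and, from 18 lists, the called members (at most 4 with values) or the most abundant ones; Ggcx, Cdkn1a, Acan, Col2a1 and the neighbouring genes were named for their role or place after their values were seen. Genes, lists and rules were chosen with earlier results of these data known. Mouse names give the pairing of hemispheres: deviations from group means correlated with a median r of 0.416 (0.0346 to 0.685) over 17 mice, and with -0.101 for the 98 pairs that joined hemispheres of different animals of the same group. The code was tested on simulated data. Alternatives covered the pseudocount, filter, scaling, array weights, prefix and left-out libraries.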

Additional observations from a re-analysis of the deposited data

Results flagged for a closer look

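The contralateral sham library of mouse 9_10 stood apart from the 4 other contralateral shams for Ucma, at 7.85 TPM against 1.39 to 1.99 TPM, and was picked out by Dixon's test for a single distant value. It was 1 of 16 sets of libraries examined in this way, and chance alone marks about 1 in 20. The same library also held the highest contralateral sham level of 1500015O10Rik, at 27.59 TPM, and of the summed ependymal markers, at 1650 TPM. Without it the contralateral injured minus sham difference of Ucma was 0.23 in place of -0.10 on the log2 scale.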

How the results depend on the processing

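The tested differences of the 2 genes kept their side of the threshold under the alternatives run, with 1 exception, the splits by prefix aside. With array weights the ipsilateral PTE+ minus PTE- difference of Ucma was 0.80 (limma unadjusted p = 0.0472), past the unadjusted threshold, against 0.66 to 1.38 over the alternatives. Among the splits, the contralateral injured minus sham difference of 1500015O10Rik passed it within prefix 8 (-1.60, exact permutation p = 0.0357), but not with all mice (exact permutation p = 0.541). The ipsilateral injured minus sham difference, which chose the genes and was not tested, ranged from 1.38 to 1.93 for 1500015O10Rik, lowest without sham mouse 9_11, and from 1.29 to 1.80 for Ucma. The contralateral PTE+ minus PTE- difference of 1500015O10Rik ranged from -0.75 to 0.47 and changed sign. The PTE+ minus PTE- hemisphere difference within mice turned from -0.76 to 0.11 for 1500015O10Rik and from -0.38 to 0.04 for Ucma without mouse 9_17. The ipsilateral correlation of the genes rose to 0.577 without mouse 9_14, and the contralateral one dropped to 0.449 without the 2 farthest libraries. With no replicate block, the hemispheres were not paired by mouse, and the libraries of injured mice with only 1 hemisphere were added. The PTE+ minus PTE- hemisphere difference was then -0.14 for 1500015O10Rik and 0.37 for Ucma, and 0.04 for Ucma without mouse 9_14. Neither gene was called. For the same mice this difference of means is equal with and without pairing, so the values moved with the added libraries. The within-mouse fits of injured mice hold no sham, so leaving out a sham did not apply.

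Counts of genes called moved more. Between ipsilateral injured and sham libraries 169 became 379 with no filter, 273 with a filter of 1 TPM, 843 with array weights, 399 without mouse 9_14 and 138 to 415 over the libraries left out. For ipsilateral PTE the count of 60 became 171, 441 with array weights, 197 without 9_14 and 23 to 197 over libraries left out. For contralateral injury 428 became 682 with no filter and 231 to 883. For contralateral PTE 291 became 458, 828 with array weights and 201 to 489. Within mice, PTE gave 330 genes, 137 to 882 with a mouse left out, 9 with no replicate block and 49 when 9_14 was also left out. The fits with no replicate block also added libraries of mice with only 1 hemisphere. Median centring turned the split of higher against lower calls from 57 and 371 to 255 and 155 for contralateral injury, from 34 and 26 to 14 and 36 for ipsilateral PTE, from 203 and 88 to 148 and 213 for contralateral PTE, from 111 and 219 to 228 and 141 within mice, and from 129 and 40 to 115 and 62 for ipsilateral injury. The causes were not tested. TPM gives no depth, so low values such as contralateral Ucma have unknown counting error.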
